A study of Mus musculus with 12 samples.

Results

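The cell cycle genes described here are a listed group of 48 genes among the 23479 gene symbols counted in total RNA-seq of mouse splenic CD4+ T cells. Of these, 30 act around the passage from G1 into S phase (G1/S: D-type and E-type cyclins, their kinases and inhibitors, E2F factors, the MCM helicase and replication factors) and 18 in G2 and mitosis (G2/M: A-type and B-type cyclins, Cdk1, mitotic kinases and spindle proteins). The list names genes and sets no threshold on a measured value, but it was chosen with earlier results of these data known. The 12 libraries form 4 groups of 3: wild-type (WT, C57BL/6J) and Sirt2-/- (KO, C57BL/6 background) cells taken directly after isolation (0 h), and cells of both genotypes cultured for 24 h in wells coated with anti-CD3 (clone 145-2C11, 5 µg/ml). The cells were enriched from spleen by removal of other cells, with a stated purity over 95%. Anti-CD3 cross-links the T cell receptor complex, and Sirt2 encodes an NAD+-dependent deacetylase. Time in culture and antibody cannot be told apart in these libraries. The labels number the libraries within a group and do not say whether the numbers stand for separate mice, so p-values measure the spread between libraries, which may be technical.

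A resting T cell sits outside the cycle with its E2F-controlled genes held down by pocket proteins such as p130. After receptor stimulation, D-type cyclins with Cdk4 or Cdk6 phosphorylate the pocket proteins, E2F factors are freed, and genes for DNA replication are transcribed before S phase. Genes for mitosis follow later, from promoters with a CHR element (cell cycle genes homology region) and CCAAT boxes, bound by the DREAM complex in resting cells and by B-MYB with FOXM1 in G2. A first division of a naive T cell usually comes a day or more after stimulation.

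Promoter sequences of the members are shown because the G1/S and G2/M classes differ in the words they hold. They were taken from a RefSeq-based table (GRCm38.p6, 250 bases before to 50 after each start), which held 43 entries for 37 of the 48 members. Both strands were searched for the CHR core TTTGAA, for CCAAT, and for 3 E2F-like words, TTTCCCGC, TTTGGCGC and TTTCGCGC, of which TTTGGCGC and TTTCGCGC can overlap on opposite strands. The sequences shown are 2 MCM promoters, whose genes were higher at 24 h, and 5 mitotic promoters, from upstream of the start and written 5′ to 3′ on the gene's strand, with every match in capitals (a match on the other strand appears as its reverse complement, TTCAAA for TTTGAA and ATTGG for CCAAT).
Mcm5, chr8:75109349-75109508, plus strand: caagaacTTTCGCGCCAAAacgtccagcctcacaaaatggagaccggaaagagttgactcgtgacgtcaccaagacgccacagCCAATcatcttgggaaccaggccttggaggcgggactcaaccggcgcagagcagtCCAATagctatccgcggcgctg
Mcm6, chr1:128359706-128359825, minus strand: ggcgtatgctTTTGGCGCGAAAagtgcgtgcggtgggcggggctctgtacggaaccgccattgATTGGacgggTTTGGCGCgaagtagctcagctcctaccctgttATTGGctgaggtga
Cdk1, chr10:69352913-69353052, minus strand: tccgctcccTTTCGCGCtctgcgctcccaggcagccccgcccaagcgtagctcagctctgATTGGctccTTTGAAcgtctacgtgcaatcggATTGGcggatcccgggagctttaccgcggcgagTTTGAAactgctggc
Top2a, chr11:99024190-99024419, minus strand: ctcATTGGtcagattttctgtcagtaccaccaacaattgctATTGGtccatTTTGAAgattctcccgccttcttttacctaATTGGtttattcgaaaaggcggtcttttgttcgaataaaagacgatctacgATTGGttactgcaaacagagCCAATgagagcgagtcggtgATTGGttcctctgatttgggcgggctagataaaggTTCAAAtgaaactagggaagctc
Mki67, chr7:135716380-135716569, minus strand: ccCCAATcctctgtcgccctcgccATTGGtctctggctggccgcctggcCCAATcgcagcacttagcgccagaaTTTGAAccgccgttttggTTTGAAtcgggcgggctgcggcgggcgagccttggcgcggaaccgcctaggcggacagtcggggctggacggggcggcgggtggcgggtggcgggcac
Cdc20, chr4:118437344-118437403, minus strand: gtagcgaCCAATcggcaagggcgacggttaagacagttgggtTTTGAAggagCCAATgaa
Kif11, chr19:37376332-37376381, plus strand: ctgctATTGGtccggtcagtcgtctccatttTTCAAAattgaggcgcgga

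TTTGAA lay in 10 of the 14 G2/M promoters (71.4%), in 5 of the 29 G1/S promoters (17.2%) and in 17.9% of all 32851 promoters of the table. An E2F-like word lay in 10 of the 29 G1/S promoters (34.5%), in 1 of the 14 G2/M promoters, that of Cdk1, and in 1.84% of all promoters. The 6 MCM entries covered 5 genes, with more than 1 entry for Mcm7 and none for Mcm4. Of these entries 4 held an E2F-like word, those of Mcm3, Mcm5 and Mcm6 and 1 of Mcm7, while that of Mcm2 held TTTGAA and no E2F-like word. Mcm2 rose over time in both genotypes and Mcm3 passed in neither, so in these genes the word did not go with the call. CCAAT lay in 13 of the 14 G2/M promoters (92.9%) and 17 of the 29 G1/S promoters (58.6%), against 37.4% of all promoters, and 2 or more copies lay in 64.3%, 27.6% and 11.7%. The 4 G2/M promoters without TTTGAA in this window were those of Ccnb1, Bub1, Birc5 and Cenpe, and none of these is printed above. The promoters of 40 entries for other chromosome segregation genes held TTTGAA in 30 (75.0%), and those of 47 entries for other replication genes held an E2F-like word in 11 (23.4%). A match is a stretch of letters and does not show that a factor binds there.

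**Figure D1:**
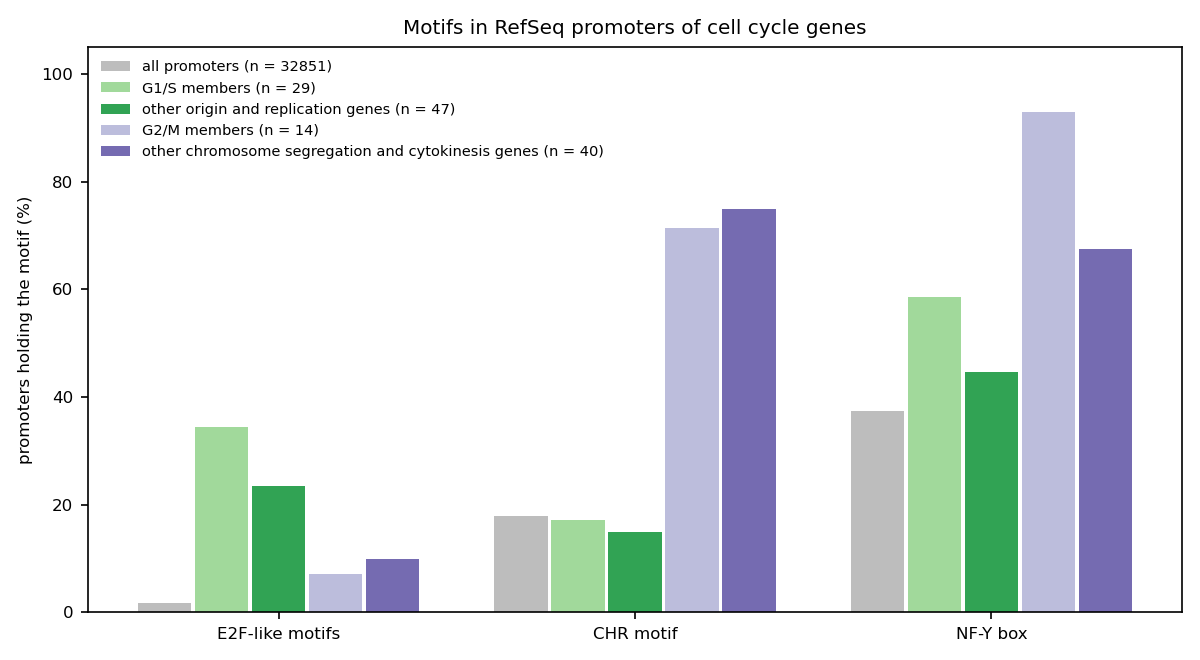
Share of RefSeq promoters (percent, y axis) that hold an E2F-like word, the CHR core TTTGAA or the NF-Y box CCAAT (x axis), as 1 bar for all promoters, for each member class and for each of 2 further lists. The CHR core stands at 71.4% in the G2/M promoters and 17.2% in the G1/S promoters, and the E2F-like words at 7.14% and 34.5%.

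Reads assigned to genes numbered 3628860 to 10025352 a library. Levels are given as CPM (counts per 1000000 reads) scaled by the TMM method, which serves to compare 1 gene between libraries, not different genes. Sirt2 stood at 70.5, 67.9 and 85.4 CPM in WT at 0 h against 12.1, 9.04 and 16.2 in KO. At 24 h it stood at 62.3, 62.9 and 76.3 in WT against 9.52, 10.5 and 19.7 in KO. Every KO library lay below every WT library, as labelled. Cd4 had a mean of 1650 CPM in WT and 1680 in KO at 0 h. Changes were tested with edgeR's quasi-likelihood test over 10981 genes, with p-values adjusted by the Benjamini-Hochberg method and called at an adjusted p below 0.05. Of the 48 members, 47 were tested: 46 passed the low-count filter through libraries of both times, Bub1 through the 0 h libraries, where it was higher, and Ccnd1, the D-type cyclin with 0 to 9 reads a library, was not tested.

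From 0 h to 24 h most mitotic members fell, while the G1/S members were split between genes that rose, fell and did not pass. In WT, 9 of the 29 tested G1/S members rose and 5 fell, while none of the 18 G2/M members rose and 11 fell. In KO, 6 G1/S members rose and 5 fell, and 14 of 18 G2/M members fell. Without Bub1, which passed the low-count filter through the 0 h libraries alone, 10 of 17 G2/M members fell in WT and 13 in KO. In each genotype 25 of 47 members (53.2%) were called, against 40.7% of all tested genes in WT and 40.4% in KO. The called share of the G1/S members was 48.3% in WT and 37.9% in KO, not far from all genes. That of the G2/M members was 61.1% and 77.8%. By direction, 20.2% of all genes rose and 20.5% fell in WT, and 19.4% rose and 21% fell in KO. The G1/S falls in both genotypes and the G1/S rises in KO were near these shares. The median log2 change of the G2/M members was -1.03 in WT and -1.35 in KO, that of the G1/S members 0.11 and -0.01, and that of all genes 0.00 in both genotypes. Without WT 24 h replicate 3, the WT library with the highest value in 19 of the 29 G1/S members at 24 h, the G1/S median in WT was -0.05, and in KO it lay between -0.06 and 0.04 without single libraries. The libraries of the 2 times did not overlap in 25 of 47 members in WT and 30 in KO, against 49.3% and 49.4% of all genes. This was near the share of all genes in WT and above it in KO. Without TMM scaling, which moves the median gene by 0.21 in WT and 0.24 in KO, 14 members rose in WT and 11 in KO, and 11 and 16 fell in place of 16 and 19.

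**Figure D2:**
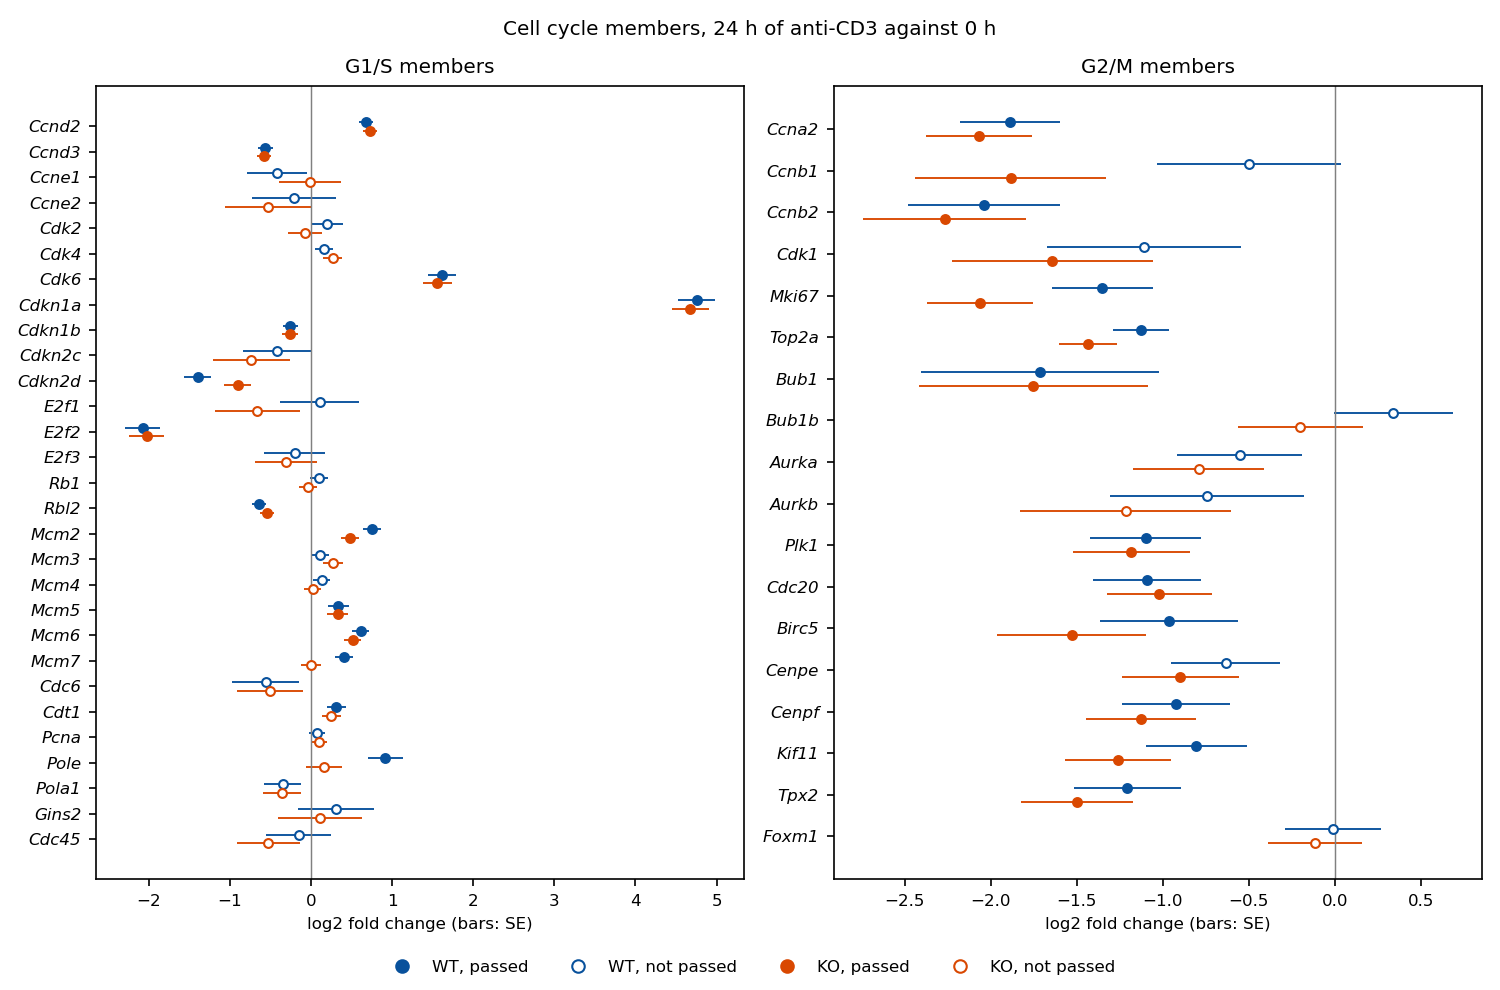
Log2 fold change from 0 h to 24 h (x axis) of each tested member (y axis) in WT and KO, with bars for the standard error from edgeR and filled points for members past the threshold. Cdkn1a stands apart at 4.75 in WT and 4.68 in KO, and all G2/M points lie left of 0 except Bub1b in WT at 0.34.

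Among the cyclins that open the cycle, Ccnd2 rose and Ccnd3 fell. Ccnd2 read 680, 673 and 671 CPM in WT at 0 h and 1010, 999 and 1220 at 24 h. In KO, Ccnd2 read 641, 613 and 698 CPM at 0 h and 1010, 1110 and 1110 at 24 h. All 24 h libraries lay above all 0 h libraries, with a log2 change of 0.675 ± 0.0869 (SE) in WT (edgeR adjusted p = 1.22e-08) and 0.72 ± 0.0871 in KO (adjusted p = 2.52e-09). Ccnd3 read 177, 175 and 176 CPM in WT at 0 h and 116, 126 and 115 at 24 h. In KO, Ccnd3 read 174, 163 and 195 CPM at 0 h and 122, 116 and 118 at 24 h. The times did not overlap. Ccnd3 was 1.48-fold lower in WT (edgeR adjusted p = 1.13e-06) and 1.49-fold lower in KO. On a scale per length (CPM per kilobase of GENCODE M21 exons), Ccnd2 stood highest of the D-type cyclins in WT at 0 h. It was at 71.6, against 20.1 for Ccnd3 and 0.0883 for Ccnd1, and at 24 h the levels of Ccnd2 and Ccnd3 were 115 and 13.6. The length joins the exons of all annotated transcripts of a gene, not those the cells make, so such comparisons between genes are rough. The E-type cyclins, which activate Cdk2 at S phase entry, stayed low: Ccne1 was between 2.37 and 6.58 CPM and Ccne2 between 1.21 and 4.72 CPM across the 12 libraries, and neither passed the test in either genotype.

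Of the kinases that partner these cyclins, Cdk6 alone passed the test, in both genotypes. It read 11.8, 10.3 and 10.8 CPM in WT at 0 h and 33.6, 30.3 and 36.4 at 24 h. In KO, Cdk6 read 13, 10.3 and 9.23 CPM at 0 h and 34.8, 29.5 and 32.8 at 24 h. The 24 h libraries were 3.06-fold higher in WT (log2 1.61 ± 0.177, edgeR adjusted p = 2.14e-10) and 2.94-fold higher in KO. Cdk4, the related D-cyclin kinase, had a log2 change of 0.16 ± 0.114 in WT and 0.27 ± 0.118 in KO (adjusted p = 0.277 and 0.0674 by edgeR). Without WT 0 h replicate 1 it passed in WT, with a log2 change of 0.30 (adjusted p = 0.0495). In KO it passed with no low-count filter, at minimum count 30, with only the compared groups in the fit and without any 1 WT 0 h library (edgeR adjusted p of Cdk4 down to 0.0326). Of its exon bases, 19.7% lie under Tspan31 on the other strand, so reads could be shared. Cdk2 read 14.7 to 22.3 CPM in WT at 0 h and 15.6 to 25.9 at 24 h, with overlapping groups.

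The inhibitors of these kinases moved apart from one another. Cdkn1a, which encodes p21, an inhibitor of cyclin-CDK complexes, had the largest change of all members: 2.25, 2.36 and 1.38 CPM in WT at 0 h and 51.4, 49.9 and 58.7 at 24 h. In KO, Cdkn1a read 2.9, 1.78 and 1.13 CPM at 0 h and 46.3, 55.4 and 59.7 at 24 h. That is a 27.0-fold rise in WT (log2 4.75 ± 0.226, edgeR adjusted p = 2.43e-22) and a 25.6-fold rise in KO (log2 4.68 ± 0.226). Cdkn1b, which encodes p27, the inhibitor abundant in resting lymphocytes, fell slightly, from 284, 232 and 259 CPM to 218, 205 and 227 in WT (log2 -0.26 ± 0.0921, adjusted p = 0.0231) and by a log2 change of -0.26 in KO (adjusted p = 0.0219). The WT call of Cdkn1b was lost without WT 0 h replicate 1 or 3 or WT 24 h replicate 1 or 2 (adjusted p up to 0.213). Its KO call was lost without KO 0 h replicate 1 or 2 or KO 24 h replicate 1 (up to 0.247). Without TMM scaling both calls were lost (log2 -0.05 and -0.02).

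Cdkn2d, which encodes p19-INK4d, an inhibitor of Cdk4 and Cdk6, fell more. It read 35.7, 40.5 and 31.9 CPM in WT at 0 h and 12.9, 13.7 and 14.2 at 24 h. In KO, Cdkn2d read 31.4, 33.4 and 41.6 CPM at 0 h and 15.7, 21.8 and 18.9 at 24 h. The log2 change was -1.40 ± 0.169 in WT (edgeR adjusted p = 2.38e-09) and -0.90 ± 0.169 in KO (adjusted p = 2.11e-05). Cdkn2c, encoding p18-INK4c, was between 1.69 and 5.63 CPM and did not pass in either genotype. On the same rough scale per kilobase of exon, Cdkn1b stood highest of the 4 inhibitors at both times in WT (56.9 at 0 h and 47.7 at 24 h), while Cdkn2d went from 22.9 to 8.64.

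Among the E2F factors and pocket proteins, 2 of 5 fell and none rose. E2f2, an E2F family member that restrains T cell proliferation in mice, read 31.4, 26.3 and 26.9 CPM in WT at 0 h and 5.83, 7.23 and 6.7 at 24 h. In KO, E2f2 read 38.1, 33.2 and 38.4 CPM at 0 h and 5.31, 13.1 and 8.21 at 24 h. It was 4.22-fold lower at 24 h in WT (log2 -2.08 ± 0.213, edgeR adjusted p = 3.33e-11) and 4.08-fold lower in KO (log2 -2.03 ± 0.211), with no overlap. Rbl2, which encodes the pocket protein p130 of resting cells, fell from 201, 214 and 194 CPM to 128, 139 and 124 in WT (log2 -0.64 ± 0.086, adjusted p = 3.3e-08). In KO, Rbl2 fell from 202, 209 and 199 to 137, 145 and 136 CPM (log2 -0.54 ± 0.0868). Rb1, the retinoblastoma gene, read 70.6 to 89.2 CPM in WT at 0 h and 72.7 to 92.7 at 24 h and did not pass. E2f1 and E2f3, activators of S phase genes, were under 10 CPM in every library and did not pass.

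The 6 subunits of the MCM2-7 helicase, which is loaded at origins before S phase, were the part of the list with the most genes higher at 24 h: 4 of 6 rose in WT and 3 of 6 in KO, and none fell. Mcm2 read 65, 60.1 and 73.1 CPM in WT at 0 h and 107, 104 and 124 at 24 h. In KO, Mcm2 read 80.1, 61.2 and 69.5 CPM at 0 h and 94.8, 107 and 93.3 at 24 h. This was a log2 rise of 0.755 ± 0.109 in WT (edgeR adjusted p = 1.62e-07) and 0.48 ± 0.111 in KO (adjusted p = 0.000408). Mcm6, whose promoter is printed above, read 58.2, 64.8 and 63 CPM in WT at 0 h and 87.4, 98.7 and 97.5 at 24 h. In KO, Mcm6 read 67.1, 60 and 69.3 CPM at 0 h and 89.3, 97.9 and 93.1 at 24 h. This was a log2 rise of 0.61 ± 0.103 in WT (adjusted p = 3.67e-06) and 0.51 ± 0.104 in KO (adjusted p = 8.28e-05). In both genes every 24 h library lay above every 0 h library of its genotype. Summed over the 6 subunits, the level was 412 ± 6.99 CPM (SD, n = 3) in WT at 0 h and 535 ± 45.0 at 24 h. In KO these sums were 421 ± 44.4 and 501 ± 37.3.

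Mcm5 changed less, from 41.1, 43.2 and 41.8 to 46, 51.6 and 61.4 CPM in WT (log2 0.34 ± 0.131, edgeR adjusted p = 0.0351). In KO, Mcm5 went from 41.1, 32.1 and 44.2 to 47.6, 53.3 and 46 CPM (log2 0.33 ± 0.135, adjusted p = 0.0497). The call of Mcm5 ended in WT without WT 0 h replicate 1 or 3 or WT 24 h replicate 2 or 3 (adjusted p up to 0.239). In KO it ended under DESeq2 (adjusted p = 0.0519) and without any 1 of KO 0 h replicate 2, WT 24 h replicates 1 and 2 and the KO 24 h libraries (up to 0.212). Mcm7 rose in WT, from 56.8, 55.8 and 58.9 to 73.7, 82.6 and 70.5 CPM (log2 0.40 ± 0.115, adjusted p = 0.00398). In KO, Mcm7 read 71.5, 56.8 and 65.3 CPM at 0 h and 60.8, 75.1 and 57.5 at 24 h (log2 -0.00 ± 0.118, adjusted p = 0.997). Mcm3 and Mcm4 did not pass in either genotype, with log2 changes between 0.02 and 0.27. Mcm3 passed in KO with no filter, at minimum count 30, with only the compared groups in the fit and without any 1 WT 0 h library or KO 0 h replicate 1 (edgeR adjusted p down to 0.0178).

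Of the 7 genes for origin licensing and the replication fork, Pole and Cdt1 rose in WT and none passed in KO. Pole encodes the catalytic subunit of the leading-strand polymerase. It read 12, 9.42 and 10.3 CPM in WT at 0 h and 26.1, 18.7 and 15.2 at 24 h (log2 0.91 ± 0.215, edgeR adjusted p = 0.000531). In KO, Pole read 12.9, 11.1 and 13.2 CPM at 0 h and 12.3, 14.9 and 14.4 at 24 h (log2 0.16 ± 0.222, adjusted p = 0.612). Cdt1, the loader of the helicase, read 50.9, 56.9 and 53.6 CPM in WT at 0 h and 72.7, 58.4 and 69.9 at 24 h (log2 0.31 ± 0.115, adjusted p = 0.0277). In KO, Cdt1 read 47.6, 50.7 and 46.9 CPM at 0 h and 56.4, 62.2 and 53.7 at 24 h (log2 0.25 ± 0.119, adjusted p = 0.0898). Neither genotype's times overlapped. The WT call of Cdt1 ended without WT 0 h replicate 1, WT 24 h replicate 1 or WT 24 h replicate 3 (adjusted p up to 0.126). Pcna, the sliding clamp and a usual marker of proliferating cells, was already at 152, 151 and 178 CPM in WT at 0 h and read 163, 155 and 189 at 24 h (log2 0.07 ± 0.0927, adjusted p = 0.56). Cdc6, Cdc45 and Gins2 were under 7 CPM in every library, Pola1 between 8.97 and 18.3 CPM, and none of the 4 passed. Of the exon bases of Gins2, 67.3% lie under Gse1 on the other strand.

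**Figure D3:**
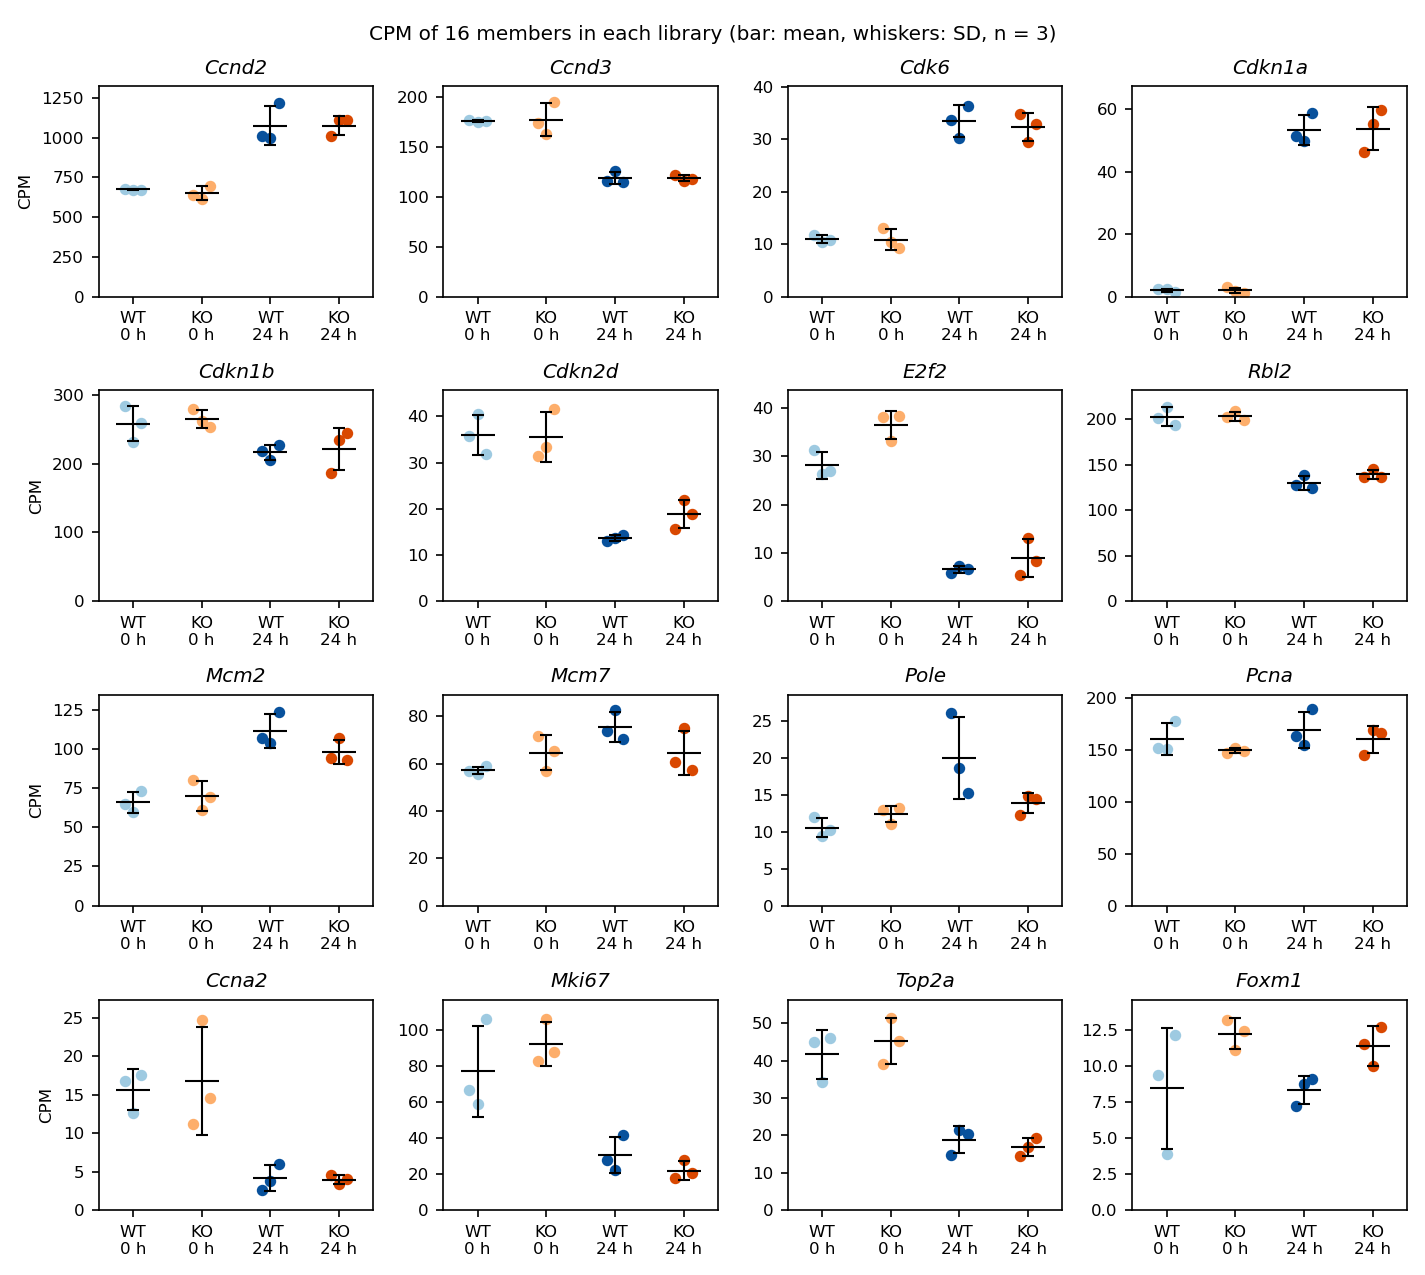
CPM (y axis, linear, from 0) of 16 members in each of the 12 libraries, 1 point a library, by group (x axis), with the mean and SD of 3 libraries. Cdk6 and Cdkn1a are higher in every 24 h library and E2f2, Mki67 and Top2a are lower, while Pcna and Foxm1 overlap between the times.

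Of the mitotic cyclins and their kinase, all 4 genes fell in KO and Ccna2 and Ccnb2 fell in WT. Ccna2, cyclin A2 of S phase and G2, read 16.8, 12.6 and 17.5 CPM in WT at 0 h and 2.61, 3.79 and 6 at 24 h. In KO, Ccna2 read 11.2, 24.7 and 14.5 CPM at 0 h and 4.58, 3.32 and 3.98 at 24 h. It fell by 1.89 on the log2 scale in WT (SE 0.292, edgeR adjusted p = 7.01e-07) and by 2.07 in KO (SE 0.308, adjusted p = 3.29e-07), and 12.5% of its exon bases overlap Exosc9. Ccnb2, a B-type cyclin, read 8.31, 6.51 and 6.13 CPM in WT at 0 h and 1, 2.3 and 1.53 at 24 h. In KO, Ccnb2 read 4.29, 6.94 and 10.5 CPM at 0 h and 0.366, 1.92 and 2.24 at 24 h. Ccnb2 fell by 2.04 in WT (adjusted p = 0.000177) and 2.27 in KO (adjusted p = 0.00012).

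Ccnb1, the B-type cyclin that drives entry into mitosis, did not pass in WT, where it read 3.64, 1.11 and 2.63 CPM at 0 h and 0.804, 2.18 and 1.95 at 24 h (log2 -0.50 ± 0.533, edgeR adjusted p = 0.485). In KO it fell from 6.97, 3.55 and 3.39 to 1.46, 0.699 and 1.74 CPM (log2 -1.88 ± 0.554, adjusted p = 0.00529), and the call ended without KO 0 h replicate 1 or KO 24 h replicate 2 (adjusted p up to 0.0825). Cdk1, the kinase of both B-type cyclins, read 3.81, 1.66 and 4.13 CPM in WT at 0 h and 1.81, 1.03 and 1.67 at 24 h. In KO, Cdk1 read 5.47, 5.16 and 2.07 CPM at 0 h and 0.183, 1.22 and 2.99 at 24 h. Its log2 change was -1.11 ± 0.563 in WT (adjusted p = 0.114) and -1.64 ± 0.584 in KO (adjusted p = 0.0216), where the groups overlapped and the call ended without KO 0 h replicate 1 or 2 or KO 24 h replicate 1 or 2 (adjusted p up to 0.177). The log2 change of Cdk1 in KO was -2.56 without KO 24 h replicate 3 and -1.08 without KO 24 h replicate 1.

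Mki67 and Top2a were the G2/M members with the most reads. Mki67, which encodes the proliferation marker Ki-67, read 66.5, 58.9 and 106 CPM in WT at 0 h and 27.7, 22 and 41.6 at 24 h. In KO, Mki67 read 83.1, 106 and 88.1 CPM at 0 h and 17.6, 27.8 and 20.4 at 24 h. It was 2.55-fold lower at 24 h in WT (log2 -1.35 ± 0.291, edgeR adjusted p = 0.00419) and 4.18-fold lower in KO (log2 -2.06 ± 0.31, adjusted p = 0.000434), with no overlap. Top2a, the topoisomerase that untangles chromosomes, read 44.9, 34.2 and 45.9 CPM in WT at 0 h and 14.7, 21.5 and 20.4 at 24 h. In KO, Top2a read 39.1, 51.3 and 45.2 CPM at 0 h and 14.5, 16.8 and 19.2 at 24 h. It was 2.18-fold lower in WT (log2 -1.12 ± 0.162, adjusted p = 1.63e-07) and 2.70-fold lower in KO (log2 -1.43 ± 0.17, adjusted p = 1.91e-09).

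Of the 5 checkpoint and mitotic kinases, Plk1 fell in both genotypes, and so did Bub1, which had passed the filter only through the time at which it was higher. Plk1, the polo-like kinase of mitosis, read 9.01, 11.1 and 8.26 CPM in WT at 0 h and 6.03, 2.41 and 5.16 at 24 h. In KO, Plk1 read 8.15, 7.58 and 11.9 CPM at 0 h and 3.48, 3.32 and 5.47 at 24 h. The log2 changes were -1.10 ± 0.323 in WT (edgeR adjusted p = 0.00506, and 0.0786 without WT 24 h replicate 2) and -1.18 ± 0.339 in KO (adjusted p = 0.00427). Bub1, a spindle checkpoint kinase, stood at only 2.94, 0.416 and 2.88 CPM in WT at 0 h and 0.201, 0.459 and 1.12 at 24 h, where the groups overlapped. Its log2 change of -1.71 ± 0.689 in WT (adjusted p = 0.0425) lost its call without any 1 of 8 of the 12 libraries. These were WT 0 h replicates 1 and 3, KO 0 h replicates 1 and 2, WT 24 h replicates 1 and 2 and KO 24 h replicates 2 and 3 (adjusted p up to 0.201). In KO the change of Bub1 was -1.75 ± 0.663 (adjusted p = 0.0311), lost without KO 0 h replicate 1 or any 1 KO 24 h library (up to 0.12). Bub1b, Aurka and Aurkb did not pass in either genotype, and Bub1b, the checkpoint kinase BubR1, read 4.5, 5.13 and 6.01 CPM in WT at 0 h and 5.83, 6.09 and 7.95 at 24 h. Aurka read 4.68 to 6.1 CPM in WT at 0 h and 3.01 to 4.36 at 24 h, and 5.26 to 6.21 and 2.2 to 4.37 in KO, without overlap. Aurkb read 1.25 to 4.38 and 0.574 to 2.61 CPM in WT, with overlap, and 1.82 to 4.14 and 0.746 to 1.46 in KO.

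The 6 genes for the anaphase-promoting complex, the passenger complex, the kinetochore and the spindle all fell in KO, and all but Cenpe fell in WT. Tpx2, a spindle assembly factor, read 8.14, 9.01 and 12.3 CPM in WT at 0 h and 6.63, 3.79 and 2.79 at 24 h. In KO, Tpx2 read 12.9, 8.71 and 11.7 CPM at 0 h and 2.93, 5.07 and 3.73 at 24 h. This was a log2 change of -1.21 ± 0.313 in WT (edgeR adjusted p = 0.00162) and -1.50 ± 0.326 in KO (adjusted p = 0.000206). Cdc20, the activator of the anaphase-promoting complex, read 7.27, 8.31 and 8.01 CPM in WT at 0 h and 2.81, 5.05 and 2.93 at 24 h. In KO, Cdc20 read 14, 9.68 and 8.1 CPM at 0 h and 4.76, 5.24 and 5.97 at 24 h. This was a change of -1.09 ± 0.314 in WT (adjusted p = 0.00418) and -1.02 ± 0.307 in KO (adjusted p = 0.00652, and 0.104 without KO 0 h replicate 1). Birc5, which encodes survivin of the passenger complex, read 5.89, 5.13 and 5.51 CPM in WT at 0 h and 1.81, 4.13 and 2.23 at 24 h, with a change of -0.96 ± 0.399 (adjusted p = 0.0488) in WT and -1.53 ± 0.433 in KO (adjusted p = 0.00379).

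Birc5 was the least firm of these calls in WT: it ended without any 1 of 8 libraries, namely the 3 of WT at 0 h, WT 24 h replicates 1 and 3, KO 0 h replicates 2 and 3 and KO 24 h replicate 3 (edgeR adjusted p up to 0.165). Cenpf, a kinetochore protein, fell by 0.93 in WT (adjusted p = 0.0154, and up to 0.105 without WT 0 h replicate 1 or WT 24 h replicate 3) and by 1.13 in KO (adjusted p = 0.0039). Kif11, the motor that separates spindle poles, had log2 changes of -0.80 in WT (adjusted p = 0.0237, and up to 0.148 without WT 0 h replicate 3 or WT 24 h replicate 1 or 2) and -1.26 in KO (adjusted p = 0.000912). Cenpe, a kinetochore motor, had a change of -0.63 ± 0.319 in WT (adjusted p = 0.11), which was -0.89 without WT 0 h replicate 2 (adjusted p = 0.0274) and -0.24 without WT 0 h replicate 3 (adjusted p = 0.642), and -0.90 ± 0.342 in KO (adjusted p = 0.0326, and up to 0.22 without KO 0 h replicate 2 or 3 or KO 24 h replicate 1 or 2). Foxm1, the transcription factor of the G2/M program, read 9.35, 3.88 and 12.1 CPM in WT at 0 h and 7.23, 8.73 and 9.07 at 24 h. In KO, Foxm1 read 13.2, 11.1 and 12.4 CPM at 0 h and 11.5, 9.96 and 12.7 at 24 h. It passed in neither genotype (log2 -0.01 and -0.11).

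Reads behind the mitotic genes were few. All 18 G2/M members together had 405 to 2278 reads a library, 5 of them had fewer than 30 reads in every 24 h library and 9 fewer than 100 in every library. Summed over the 18, the level was 231 ± 46.9 CPM (SD, n = 3) in WT and 266 ± 25.1 in KO at 0 h. At 24 h it was 110 ± 13.6 and 97.1 ± 9.59, and no 24 h library reached any 0 h library. Without Mki67 and Top2a the sums were 112 ± 17.3, 128 ± 7.44, 60.9 ± 2.65 and 58.4 ± 3.71 in the same order. The sum over the 30 G1/S members was 2230 ± 40.6 CPM in WT and 2220 ± 89.4 in KO at 0 h, and 2650 ± 193 and 2610 ± 139 at 24 h, of which Ccnd2 made up the largest share. Ccnd2 alone went from a mean of 674 to 1080 CPM in WT and from 651 to 1080 in KO. The rise of the sum was thus largely that of Ccnd2 and does not describe the class. In bulk RNA, fewer cells of a type and less RNA per cell cannot be told apart.

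**Figure D4:**
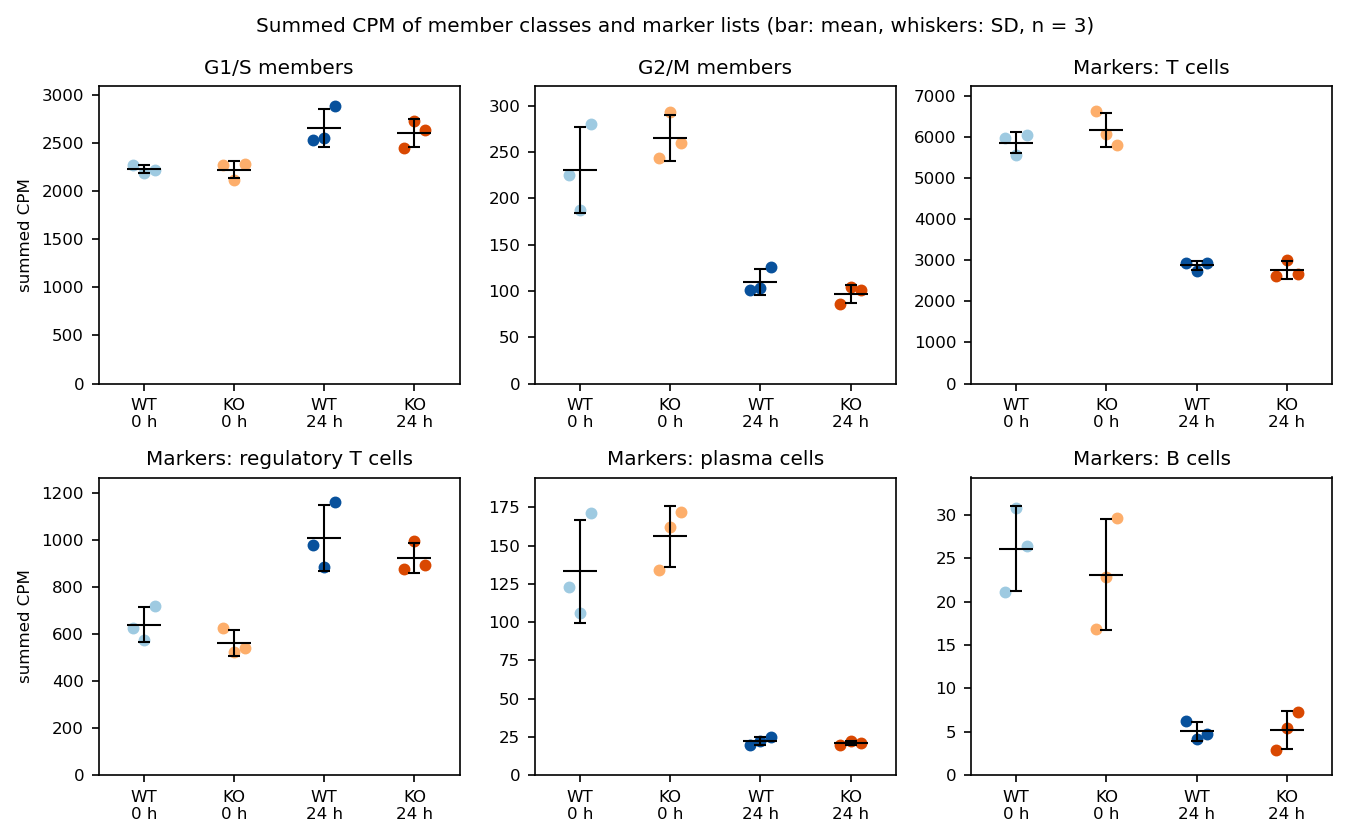
Summed CPM (y axis, linear, from 0) of the G1/S members, the G2/M members and 4 marker lists in each library (points), by group (x axis), with the mean and SD of 3 libraries. The G2/M sum lies between 187 and 293 at 0 h and between 86.2 and 126 at 24 h, and the plasma cell sum between 106 and 172 and between 19.4 and 25.0.

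The summed plasma cell, B cell, NK cell and CD8 T cell markers were lower at 24 h too. The 4 plasma cell markers in the files (Igj, Sdc1, Mzb1 and Prdm1) summed to 106 to 171 CPM in WT and 134 to 172 in KO at 0 h, and to 19.7 to 25.0 and 19.4 to 22.5 at 24 h. Igj, the joining chain of secreted antibody, went from a mean of 113 to 2.06 CPM in WT and from 134 to 1.97 in KO. Prdm1, a transcription factor of plasma cells and of activated T cells, did not share this direction and made up most of the sum at 24 h, with means of 15.5 and then 19.2 CPM in WT and 16.3 and then 18.9 in KO. The 7 B cell markers went from 26.1 to 5.04 CPM in WT and from 23.1 to 5.19 in KO. The 5 NK cell markers, with Klra8 at 0 throughout, went from 28.5 to 4.19 and from 38.7 to 5.01. The CD8 T cell markers Cd8a and Cd8b1 went from a summed mean of 18.1 to 9.79 CPM in WT and from 32.6 to 12.4 in KO. Nearly all of this was Cd8b1, as Cd8a had means of 0.68 and then 0.647 CPM in WT and 1.16 and then 0.617 in KO. The 7 T cell markers were also lower at 24 h, at 2880 against 5860 CPM in WT and 2760 against 6160 in KO. The regulatory T cell gene Foxp3 went from 310 to 181 CPM in WT and from 261 to 154 in KO. Ikzf2 went from 93.5 to 52.9 and from 88.6 to 48.7, and Ctla4 from 33.4 to 34.4 and from 29.5 to 36.4. Il2ra, a gene of regulatory and of activated T cells, went from 202 to 739 and from 183 to 683. The sum of these 4 regulatory T cell markers went from 639 to 1010 CPM in WT and from 563 to 922 in KO, a rise that was largely that of Il2ra. The myeloid, dendritic cell and platelet lists each summed to at most 14.3 CPM in any library, and the erythroid list to at most 0.201. The part of these cells in the changes of the cell cycle genes was not tested.

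Between KO and WT cells at 0 h no member passed the test, and the largest differences were in genes with few reads. Both edgeR and DESeq2 called 0 of 47 members at 0 h. The edgeR background was 0.346% of all tested genes (38 genes, with 0.118% higher and 0.228% lower in KO). At an unadjusted p below 0.05 there was 1 member, against 8% of all genes. In 3 members (E2f2, Cdt1 and Gins2) the libraries of the 2 genotypes did not overlap, against 12.4% of all genes. The G2/M members had a median log2 difference (KO minus WT) of 0.125, with 16 of 18 above 0, and the G1/S members of 0.04 with 18 of 29 above 0, against 50.9% of all genes. The G2/M median was 0.28 without WT 0 h replicate 3 and 0.08 without WT 0 h replicate 2. The CD8 T cell markers Cd8a and Cd8b1 summed to 17.3 to 18.5 CPM in WT and 30.8 to 35.8 in KO at 0 h. These sums were nearly all Cd8b1 (means 17.4 and 31.5 CPM), while Cd8a, with 15 and 22 reads, overlapped between genotypes. The NK cell markers summed to 27.7 to 29.7 CPM in WT and 30 to 43.7 in KO. Neither sum overlapped between genotypes, but the NK cell sums nearly met, at 29.7 and 30 CPM. Of the NK cell markers, Klrk1 and Gzma overlapped and Klra8 was at 0. Klrb1c and Ncr1 did not overlap, Ncr1 with 5 reads in WT and 30 in KO. The part of CD8 T and NK cells was not tested.

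The members with the smallest p at 0 h were E2f2, Foxm1 and Ccnb1. E2f2 read 31.4, 26.3 and 26.9 CPM in WT and 38.1, 33.2 and 38.4 in KO, every KO library above every WT library, for a log2 difference of 0.38 ± 0.183 (edgeR adjusted p = 0.606). Foxm1 read 9.35, 3.88 and 12.1 in WT and 13.2, 11.1 and 12.4 in KO (0.53 ± 0.272, adjusted p = 0.636), and without WT 0 h replicate 3 or 2 this difference was 0.92 or 0.18. Ccnb1 read 3.64, 1.11 and 2.63 in WT and 6.97, 3.55 and 3.39 in KO (0.96 ± 0.489, adjusted p = 0.636), with overlap, and the difference was 0.51 without KO 0 h replicate 1 and 1.31 without WT 0 h replicate 1. The high WT library was often replicate 3, which held the highest WT value at 0 h in 10 of the 18 G2/M members, Mki67 among them (106 CPM against 66.5 and 58.9).

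Both tools also called 0 of 47 members at 24 h. The edgeR background was 0.273% of all tested genes (30 genes, with 0.182% higher and 0.0911% lower in KO). At an unadjusted p below 0.05 there were 2 members, against 7.06% of all genes, and 4 members (Cdkn2c, Cdkn2d, Pole and Foxm1) did not overlap, against 12.9%. Cdkn2d read 12.9, 13.7 and 14.2 CPM in WT and 15.7, 21.8 and 18.9 in KO, all KO libraries above all WT libraries, for a log2 difference of 0.47 (95% interval 0.104 to 0.832, edgeR adjusted p = 0.536). Pole read 26.1, 18.7 and 15.2 in WT and 12.3, 14.9 and 14.4 in KO, all KO libraries below, for -0.52 (95% interval -0.952 to -0.083, adjusted p = 0.593), and for -0.30 without WT 24 h replicate 1. Mcm7 had a difference of -0.23 ± 0.117 (adjusted p = 0.731), which was -0.36 without KO 24 h replicate 2 and -0.16 without KO 24 h replicate 3. The median difference of the G2/M members was -0.17 with 14 of 18 below 0, against 52.2% of all genes. It was -0.26 without KO 24 h replicate 3 and -0.07 without KO 24 h replicate 1.

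**Figure D5:**
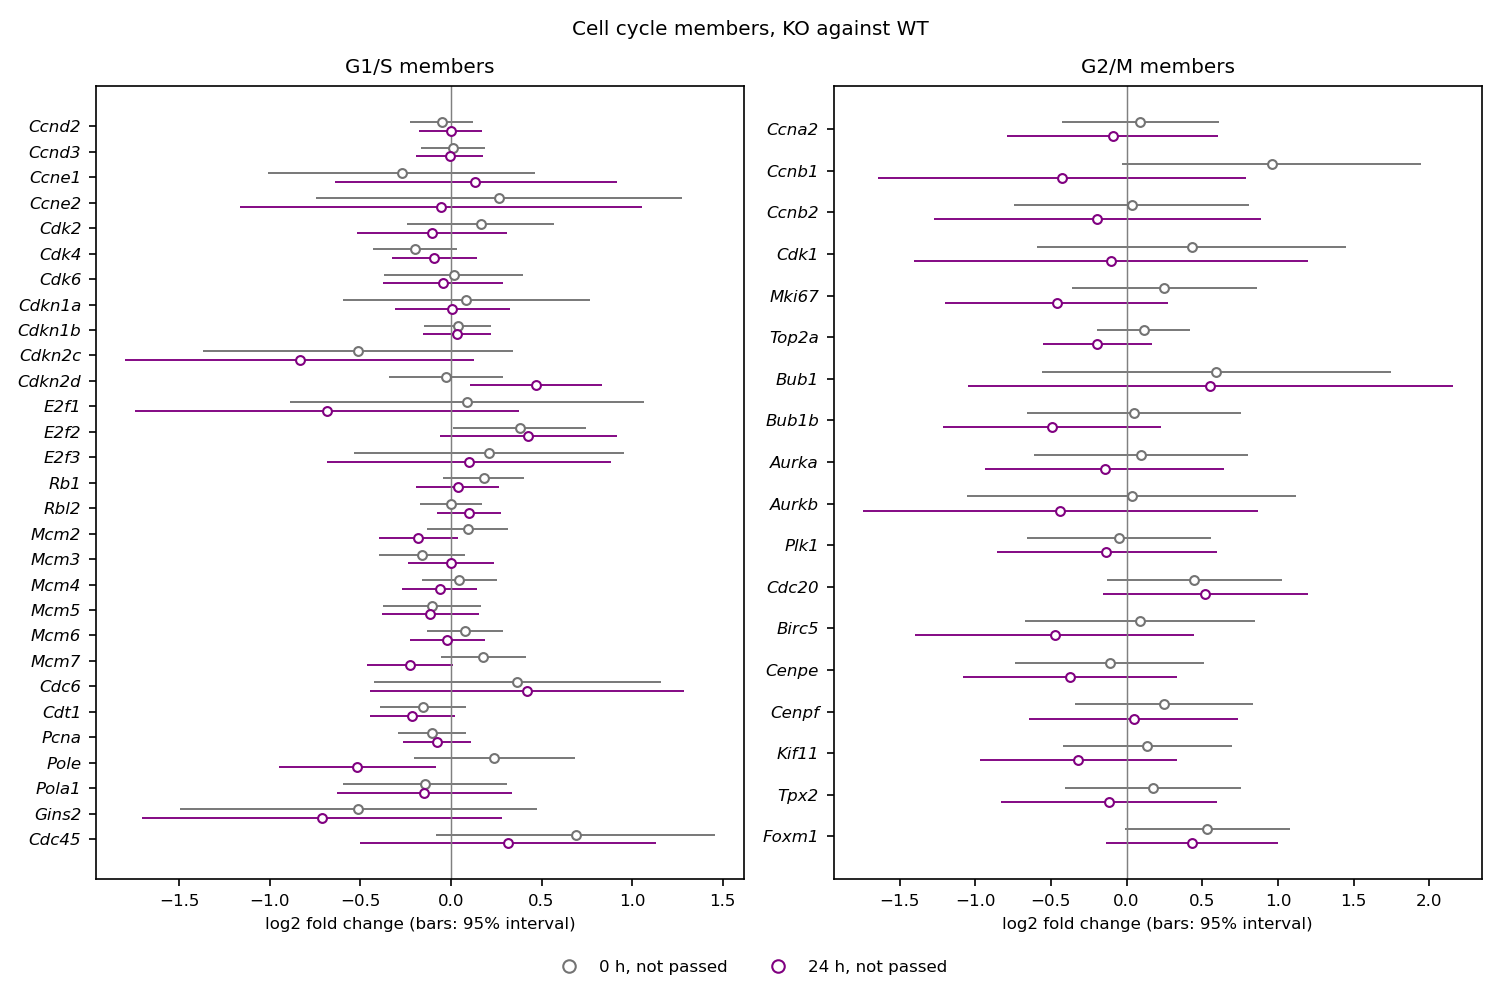
Log2 difference between KO and WT (x axis) of each tested member (y axis) at 0 h and at 24 h, with bars for the 95% interval from edgeR. No member passed the adjusted threshold, so every point is open, and the bars are narrow for abundant genes such as Ccnd2 and wide for Bub1, Ccnb1 and Cdk1.

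The intervals bound what these libraries could show for each gene. For Ccnd2 the difference at 24 h was -0.00 ± 0.0864 (SE, log2), for Mcm6 -0.02 ± 0.102 and for Cdkn1a 0.01 ± 0.157, while the SE reached 0.645 for Cdk1 and 0.793 for Bub1. The test of whether the change over time differed between genotypes (the interaction) called 0 of 47 members in edgeR and in DESeq2, with 1 of all tested genes called (0.00911%) and 3 members at an unadjusted p below 0.05 against 5.24% of all genes. These 3 were Mcm7 (KO minus WT change -0.40 ± 0.165, edgeR adjusted p = 0.895), Pole (-0.757 ± 0.309, adjusted p = 0.895) and Cdkn2d (0.50 ± 0.239, adjusted p = 0.932). So the members that passed over time in WT alone (Mcm7, Cdt1 and Pole) or in KO alone (Ccnb1, Cdk1 and Cenpe) were not shown to differ between genotypes. The other 22 passed in the same direction in both, which is 88% of the 25 called in each. The interaction value was below 0 in 17 of 18 G2/M members, with a median of -0.28 (-0.48 without WT 0 h replicate 3 and -0.18 without WT 0 h replicate 2) and none past the threshold. It is built from the same libraries as the differences at 0 h and 24 h and adds no separate evidence to them.

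A further list of 121 cell cycle gene symbols outside the 48, of which 120 were among the counted symbols and 114 were tested, was counted in the same way. It named 1 gene under both Knl1 and Casc5, and that gene was tested as Casc5. In WT 17 rose and 21 fell, against 20.2% and 20.5% of all genes, and in KO 12 rose and 35 fell, against 19.4% and 21%. The called share of the list was 33.3% in WT and 41.2% in KO, below and near the 40.7% and 40.4% of all genes. Of the 40 tested genes for chromosome segregation and cytokinesis, 15 fell and 2 rose in WT and 25 fell and 1 rose in KO. Of the 16 for origin recognition and firing, 3 (18.8%) rose and none fell in each genotype, a share of rises near that of all genes. Of the 28 for replication enzymes and nucleotide supply, 4 rose and 3 fell in WT, and 2 rose and 4 fell in KO. Rrm2, Rpa1 and Asf1b were among these falls in both genotypes. The largest falls in WT were in Cdca3, Ube2c, Kif23 and Aspm. Cdca3, like Bub1, passed the low-count filter (cutoff 1.54 CPM) through the 0 h libraries, where it was higher. At 24 h Cdca3 read 1, 0.344 and 0.698 CPM in WT and 2.01, 1.57 and 0.995 in KO. The other genes of this list were not examined for this, so the falls counted may include more such genes. Ube2c, the ubiquitin-conjugating enzyme of the anaphase-promoting complex, read 8.14, 11.2 and 14.6 CPM at 0 h and 2.01, 2.30 and 3.07 at 24 h in WT (log2 -2.19 ± 0.343, edgeR adjusted p = 8.6e-07), and Cdca3 had a log2 change of -2.605 ± 0.559 (adjusted p = 0.000167). Aspm (-1.67) and Kif23 (-1.87), which act at spindle poles and in cytokinesis, fell in KO too, by 1.55 and 1.44.

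The largest rises in WT on that list were in Pole2, Chek2, Rbl1 and Wee1. Rbl1 encodes p107, the pocket protein whose own gene is E2F-controlled. It read 51.4, 55.0 and 50.3 CPM in WT at 0 h and 127, 125 and 126 at 24 h. In KO, Rbl1 read 52.3, 54.9 and 57.6 CPM and then 145, 117 and 148. All 24 h libraries lay above all 0 h libraries, with a log2 change of 1.27 ± 0.103 in WT (edgeR adjusted p = 2.97e-14) and 1.315 ± 0.104 in KO (adjusted p = 1.36e-14). Over the same interval Rbl2, which encodes p130, fell in both genotypes. Pole2, a partner subunit of Pole, read 6.93, 3.74 and 6.01 CPM in WT at 0 h and 14.3, 16.5 and 17.7 at 24 h (log2 1.55 ± 0.269, adjusted p = 5.79e-06) and rose by 1.75 in KO, where Pole did not pass. Wee1, the kinase that inhibits Cdk1, had a log2 change of 1.18 ± 0.358 in WT (adjusted p = 0.00666) and 0.83 ± 0.365 in KO (adjusted p = 0.0665), and Chek2, a checkpoint kinase, of 1.30 and 1.05. No gene of this list was called between genotypes at 0 h, at 24 h or in the interaction by edgeR, where 9, 6 and 10 of 114 were at an unadjusted p below 0.05, against 8%, 7.06% and 5.24% of all genes.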

How the data were processed

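Total RNA-seq libraries (NuGen Ovation, ribosomal RNA depletion) were analysed from the raw read counts per gene symbol that the authors deposited, 1 table a library. Alignment used STAR 2.6.0c, per the submitters' processing notes, which also name DESeq and the build hg19, a human build, although the symbols are those of mouse. No source used here gives the counting program, the annotation or the strand setting, so overlapping or antisense genes cannot be told apart. The 5 closing entries of each table were left out; reads without a feature made up 22.8 to 35.4%, ambiguous reads 0.412 to 0.576% and reads not aligned uniquely 25.7 to 30.9%.

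Counts were analysed with edgeR 4.0.16 in R 4.3.3: TMM, filterByExpr (minimum count 10, total 15), 1 robust quasi-likelihood fit of all 12 libraries, Benjamini-Hochberg adjustment over 10981 genes. The code was tested on simulated data. Replicates differed by 3.23 to 15.5 times the sampling variance, so none was a duplicate. Alternatives were DESeq2 1.42.0, its size factors, no TMM, Rn45s left out, no filter, minimum count 30, a replicate block, only the compared groups, and leaving out each library. Equal replicate numbers were not shown to pair libraries (correlations of deviations -0.088 to 0.093 over 18 pairs, and -0.131 to 0.129 between unequal numbers). Between the times of 1 genotype, equal numbers gave 0.014, 0.076 and 0.093 in WT and 0.048, -0.002 and 0.034 in KO. The replicate block treats a number as shared by all 4 groups, so pairing within a genotype was not tested.

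The members and the lists were chosen with earlier results of these data known. Within each role, up to 3 members with the largest change in WT among those called were described in most detail. Members that did not pass were described more briefly, some by a range or limit alone. Between genotypes the 3 members with the smallest p were described, and of other cell cycle genes 4 per direction. Exon lengths, joined over all transcripts of a gene, and overlaps came from GENCODE M21.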

Additional observations from a re-analysis of the deposited data

How the results depend on the processing

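The 0 counts of members between genotypes and in the interaction were unchanged under every alternative run. Without TMM scaling 14 members rose over time in WT (9 with it) and 11 in KO (6), Cdk4, Rb1, Mcm3, Mcm4 and Pcna passed in WT and Cdk4, Mcm3, Mcm4, Cdt1 and Pcna in KO, and Cdkn1b, Bub1, Birc5, Cenpf and Kif11 in WT and Cdkn1b, Bub1 and Cenpe in KO did not. The cause was not tested. Among all genes, 38 were called between genotypes at 0 h, 59 with no low-count filter, 24 with only the compared groups in the fit and 17 to 42 without single libraries; at 24 h 30, 48 without TMM and 14 to 36 without single libraries. The 1 interaction call was lost (0) with DESeq2's size factors, without TMM, without Rn45s, at minimum count 30 and in the fit with the replicate block, became 3 with no filter, and was 0 or 1 without single libraries.

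Small values near 0 changed sign, none of them past the threshold. In WT, E2f3 became 0.001 and Cdc45 0.048 without TMM, and Foxm1 0.196 without TMM, 0.009 with no filter and 0.055 with the replicate block. In KO, Ccne1 became 0.227 without TMM, 0.016 with no filter and 0.010 at minimum count 30, and without TMM Cdk2 became 0.169, Rb1 0.203, Bub1b 0.035 and Foxm1 0.129. In KO, Mcm7 became 0.008 under DESeq2 and its size factors, 0.240 without TMM, 0.005 without Rn45s, 0.028 with no filter, 0.022 at minimum count 30 and 0.011 with only the compared groups. Without single libraries the WT values ranged from -0.501 to 0.230 for Ccne2, -0.054 to 0.446 for Cdk2, -0.221 to 0.484 for E2f1, -0.612 to 0.301 for E2f3, -0.015 to 0.176 for Pcna, -0.124 to 0.485 for Gins2, -0.301 to 0.119 for Cdc45 and -0.350 to 0.390 for Foxm1, and the KO values from -0.152 to 0.110 for Ccne1, -0.869 to 0.027 for Ccne2, -0.178 to 0.043 for Cdk2, -0.149 to 0.051 for Rb1, -0.050 to 0.160 for Mcm4, -0.129 to 0.116 for Mcm7, -0.037 to 0.313 for Gins2 and -0.474 to 0.243 for Bub1b. The replicate block left 9 rises and 15 falls in WT and 5 and 19 in KO. Its numbers were not shown to pair the libraries. The block ended the edgeR calls of Bub1 in WT (adjusted p = 0.0652) and Mcm5 in KO (adjusted p = 0.0521). With no filter, Bub1 (adjusted p = 0.0531) and Birc5 (adjusted p = 0.0699) missed the threshold in WT. Depth limits the members with few reads: 9 of 18 G2/M and 9 of 30 G1/S members had fewer than 100 in every library.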
